A study of Mus musculus with 10 samples.

Results

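The subject is the distance that still separated induced cardiomyocyte-like cells (iCM) made with GMT and miR-133 from mouse heart tissue: 3 arrays against 1, of 10 arrays in the series. The 3 arrays were chosen by their titles and held iCM from the first round, sorted at day 3, day 7 and day 18 after mouse embryonic fibroblasts (MEF) had received the GMT factors by pMx retrovirus together with a synthetic mimic of mature miR-133a. The cells were sorted for GFP under the cardiac α-MHC promoter, so each array holds a selected, GFP-positive share of the culture. The heart array held untreated heart tissue, for which the labels give neither strain nor age, and the MEF array, the starting point, held untreated fibroblasts. Beside them, 3 arrays of iCM made with GMT alone at the same days and a second-round array labelled day 7 GMT/miR-133 were used. The description of that second-round array names GMT alone, against its title and treatment.

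GMT stands for Gata4, Mef2c and Tbx5, transcription factors that together drive cardiac gene programmes in the developing heart. Given to fibroblasts, they can turn on part of a cardiomyocyte programme without a stem-cell stage, and miR-133 is a microRNA abundant in cardiac and skeletal muscle. Heart tissue is a mixed yardstick: its muscle cells carry contractile, calcium-handling and mitochondrial programmes, and vessels, fibroblasts, nerves and blood cells contribute RNA as well. In a bulk tissue sample, fewer cells of a type and less RNA per cell cannot be told apart.

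RNA was measured on 1-colour microarrays, and each value below is a log2 normalised spot intensity, so a difference of 1 is 2-fold. The files do not pair probe IDs with genes, and a search of the reference gene table returned 0 of them, so cell identity could not be checked on marker genes, the probes of the 3 delivered factors could not be picked out, and single probes are given by ID. Of 23473 probes, 20586 were detected on the heart array or on all 3 GMT/miR-133 arrays and were compared, where detected means a spot brighter than the 95th percentile of the blank spots. The day 3 and day 18 arrays were scanned in the session of heart and MEF, the day 7 array in another. In the deposited table of processed values, the day 3 and day 7 columns follow the scanner files of the other day within the same arm, so single values for day 3 and day 7 hold for the files as assigned, whereas any count or mean over the 3 arrays does not depend on which file is which day. Nothing says that the samples came from separate cultures, so the spread between the 3 days serves as the error, p-values measure only the spread between these samples, and precision is limited by having so few arrays.

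Of the probes compared, 17224 (83.7%) lay within 2-fold of heart on all 3 GMT/miR-133 arrays. This share, like those that follow, includes probes too dim to differ: 5819 had a midpoint of iCM and heart below 6 (log2), where the floor of the scale leaves no room for a 2-fold difference. Array by array, the share within 2-fold of heart was 88.0%, 87.7% and 88.7% at day 3, day 7 and day 18, and it was 87.2% on the untreated MEF array, close to the iCM shares. The remaining gap ran in both directions: 904 probes (4.39%) were at least 2-fold below heart on all 3 arrays and 708 (3.44%) were at least 2-fold above it. Under the reported processing, the large differences lay mainly below heart, and counts at these larger sizes were not taken under other processing. At least 4-fold, 261 probes were below and 113 above on all 3 arrays, and at least 16-fold, 46 were below and 10 above. Median scaling of the arrays turned the 2-fold split to 495 below and 1623 above, and the authors' value table gave 1606 below and 2019 above, so the balance between the directions is not firm. The heart array was the dimmer one before normalisation, with a 75th percentile of 174, 197 and 163 intensity units on the day 3, day 7 and day 18 GMT/miR-133 arrays, against 111 on the heart array; the part of this in the split was not tested.

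**Figure D1:**
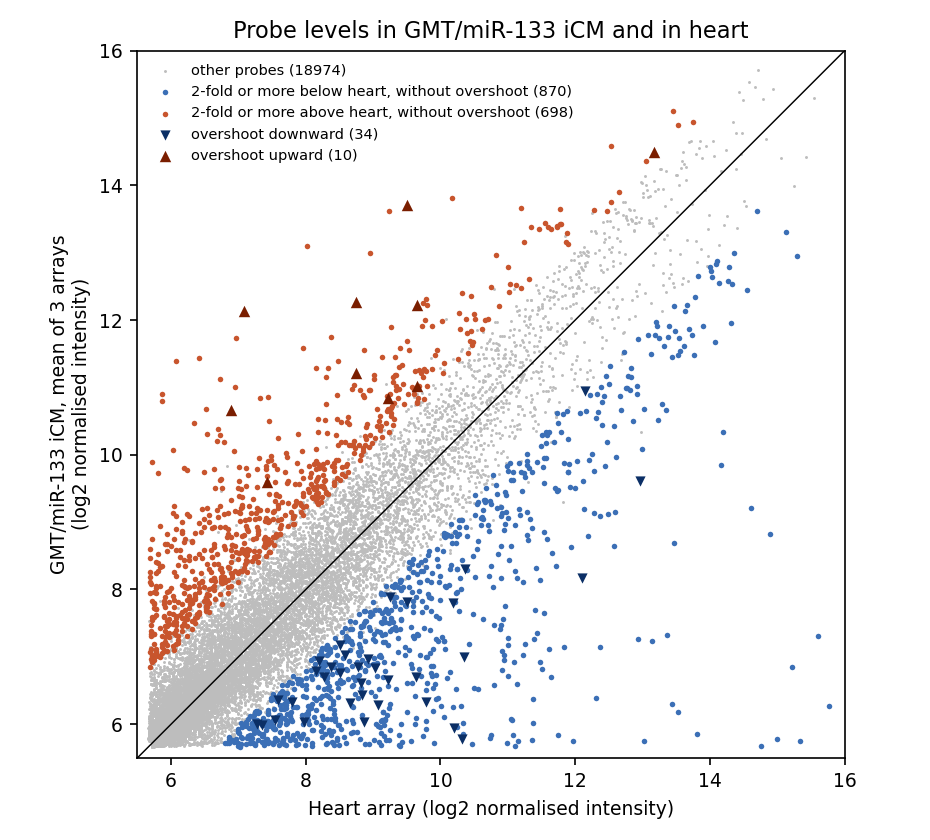
Each point is 1 of 20586 probes, with its level in heart on the x axis and its mean over the 3 GMT/miR-133 arrays on the y axis (log2 normalised intensity). Blue points lie at least 2-fold below heart and orange points at least 2-fold above it on all 3 arrays, and triangles mark the probes that went past heart, 34 downward and 10 upward; the widest departures lie below the diagonal, near the floor of the iCM scale.

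Against the spread between days, the gap was larger still in number. With limma's moderated linear model, 2433 probes (11.8%) were lower than heart and 2186 (10.6%) were higher at an adjusted p of 0.05. The model held 8 arrays in 4 groups (GMT/miR-133, GMT, heart and MEF) and took its spread from the days within both iCM arms, so the lone heart array is assumed to vary as they do. Its calls include many small differences: the median size of a called difference was 0.87 (log2), and 3112 of the 4619 calls were not 2-fold on every array. Of the 904 probes below heart, 858 were called, and of the 708 above, 649 were. The 2-fold rule and limma use the same differences from heart, so frequent calls were built in. This holds for the counts of calls in every group of these probes below, and those counts are no separate support. With day as a term shared by both arms (replicate block), 3920 were lower and 4198 higher, and with the local background 667 were lower and 141 higher.

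The distance to heart hardly differed between the 3 arrays. At day 3, day 7 and day 18, 1234, 1261 and 1174 probes were at least 2-fold below heart, and 1239, 1266 and 1146 were at least 2-fold above it. The MEF array had 1268 probes below and 1370 above heart, so the counts at 2-fold lay close to those of untreated fibroblasts. At least 4-fold in either direction, the counts were 601, 567 and 567 on the GMT/miR-133 arrays, against 797 for MEF. The root-mean-square difference from heart over all probes compared was 0.769, 0.766 and 0.751 (log2) on these arrays, against 0.856 for MEF. The 3 values lie within a narrow band, and each is below the MEF value. On the second-round day 7 array the value was 0.770.

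The distance with GMT/miR-133 was next set beside that with GMT alone. The root-mean-square difference averaged 0.762 ± 0.0096 (log2, SD, n = 3 days) with GMT/miR-133 and 0.776 ± 0.022 with GMT. It was lower with miR-133 at 2 of 3 days, with a mean paired difference of −0.014 ± 0.019 (two-sided exact permutation test, p = 0.5), and 3 pairs cannot go below p = 0.25. Heart-high and MEF-high probes are the sets at which heart and MEF differ by at least 4-fold. In both sets the median difference from heart was smaller in size with GMT/miR-133 than with GMT at all 3 days. The median difference from heart at heart-high probes was −2.22, −2.25 and −2.15 (log2) with GMT/miR-133, against −2.34, −2.40 and −2.27 with GMT. At MEF-high probes it was 0.64, 0.67 and 0.76 with GMT/miR-133, against 0.88, 0.94 and 1.08 with GMT. The paired difference between the arms was 0.13 ± 0.015 and −0.28 ± 0.043 (log2, SD, n = 3 days), and each had p = 0.25, the smallest that the two-sided exact permutation test allows here. These medians are signed, so probes past heart also shift them. Within 2-fold of heart lay 45, 42 and 57 heart-high probes with GMT/miR-133 and 38, 35 and 48 with GMT. For MEF-high probes the numbers were 156, 169 and 167 against 159, 162 and 147, lower with GMT/miR-133 at day 3. The 2-fold rule on all 3 arrays gave 904 probes below and 708 above heart with GMT/miR-133, and 940 (4.57%) and 715 (3.47%) with GMT alone. These 2 comparisons share the heart array. Between the arms themselves, limma called 0 of 20586 probes (0%), with 599 at an unadjusted p under 0.05. With day as a term (replicate block) it also called 0, with 1970 at an unadjusted p under 0.05 and a lowest adjusted p of 0.25.

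How far the cells had come was measured on probes at which heart and MEF themselves differ by at least 4-fold: 462 higher in heart (heart-high) and 338 higher in MEF (MEF-high), of which 335 passed the detection rule. These sets were chosen with the same heart and MEF arrays that the distance uses, so what follows is a description. For each probe, the iCM level was placed on the line from MEF (0%) to heart (100%) on the log2 scale.

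Heart-high probes, the activation side of the conversion, had covered little of the way. Their median position was 19.0% at day 3, 17.7% at day 7 and 21.7% at day 18, a mean of 19.4% ± 2.0 (SD, n = 3 days), beside 13.4% ± 3.8 with GMT alone. The quartiles over probes were 2.37% and 41.5%. The position depended on brightness: its mean over the 3 arrays was 25.1% for the 228 probes at 10 or more in heart (log2) and 11.9% for the 234 under 10. On all 3 arrays, 209 probes (45.2%) stayed under 25% of the way, 54 (11.7%) were at 50% or more, and 14 (3.03%) were past heart. As levels, 384 of the 462 (83.1%) were at least 2-fold below heart on all 3 arrays, and 26 (5.63%) were within 2-fold of it. The median difference from heart was −2.22, −2.25 and −2.15 (log2) at the 3 days. The 3 arrays were alike in this, and no array stood clear of the others.

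MEF-high probes, the fibroblast side, had come much closer. Their median position was 77.5%, 73.6% and 71.2% at day 3, day 7 and day 18, a mean of 74.1% ± 3.2 (SD, n = 3 days), beside 64.0% ± 5.7 with GMT alone. Position varied widely within the set, with quartiles of 32.7% and 100.4%. On all 3 arrays, 49 probes (14.6%) stayed under 25%, 188 (56.1%) were at 50% or more and 46 (13.7%) were past heart, that is, lower than heart. At the same time 122 (36.4%) were still at least 2-fold above heart on all 3 arrays, while 134 (40.0%) were within 2-fold of it. The contrast between the sets narrowed in the authors' value table, to 28.2% for its own heart-high and 49.2% for its own MEF-high probes, and median scaling gave 24.4% and 53.8%.

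**Figure D2:**
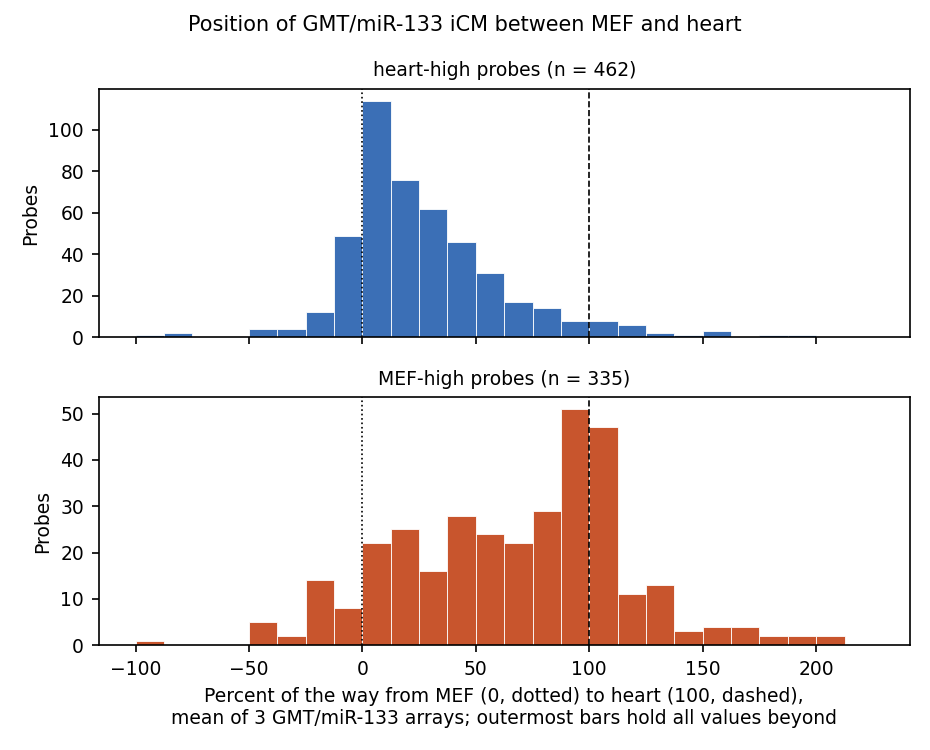
Number of probes (y axis) by percent of the way from MEF (dotted line) to heart (dashed line), as the mean of 3 GMT/miR-133 arrays, for 462 heart-high probes above and 335 MEF-high probes below. Heart-high probes pile up just above the MEF level, whereas MEF-high probes spread over the whole way with their tallest bars beside the heart level.

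The 904 probes below heart were next read against MEF, the starting level. Within 2-fold of MEF throughout lay 639 of them (70.7%). Of these 639, 253 were heart-high, and at the others heart and MEF differed by less than 4-fold. Another 49 (5.42%) were at least 2-fold above MEF and so partly raised. A further 59 were at least 2-fold below MEF where heart and MEF lie within 2-fold of each other (iCM-low), 34 had gone below heart where heart is itself at least 2-fold below MEF, and 17 were lowered where heart is at least 2-fold above MEF. The other 106 did not fall on 1 side of these bounds on all 3 arrays. For comparison, MEF and every GMT/miR-133 array lay within 2-fold of each other at 18490 of all 20586 probes (89.8%). All of these groups share arrays with the comparison itself and carry no test of their own.

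Probes below heart and near MEF held the widest gaps of all. M200000622 was at 5.75, 5.69 and 5.79 at day 3, day 7 and day 18, against 15.34 in heart, with 5.75 in MEF. It was detected on 2 of the 3 iCM arrays, and its difference from heart was −9.60 ± 0.061 (log2, SE; limma, adjusted p = 1.9e-07). All 3 iCM arrays sat at the MEF level, at the floor of the scale, where values have little room to vary. The SE and p therefore say little about precision, and the lone heart array adds no spread to them. The size depends on the processing and ran to −14.11 in the authors' value table. M400010807 was at 6.38, 6.33 and 6.09, against 15.76 in heart, where its spot was saturated, with 6.23 in MEF. Its difference of −9.50 (log2; limma, adjusted p = 8.0e-06) is therefore cut short on the heart side, and with the local background it was −8.95. Over the whole group, 564 of 639 probes were detected on all 3 iCM arrays and 22 on none, all 639 were detected in heart, and limma called 629. Against the brighter spots named as having no probe, 530 of the 639 exceeded their 95th percentile on all 3 iCM arrays and 52 on none.

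Partly raised probes had left MEF and still fell well short of heart. M300001745 was at 8.86, 9.18 and 8.41, against 14.89 in heart, with 6.10 in MEF, a difference from heart of −6.07 ± 0.77 (log2, SE; limma, adjusted p = 0.0049). Every iCM array lay between the controls, nearer to MEF. M300012836 was at 9.57, 7.99 and 10.08, against 14.60 in heart, with 5.70 in MEF, where it was not detected. The arrays disagreed here by over 2 log2 units, lowest at day 7, and the second-round day 7 array read 10.98. The difference of −5.39 ± 1.2 passed limma's test (adjusted p = 0.030), and no longer did so without day 3 (adjusted p = 0.070) or with the local background (adjusted p = 0.092). The 49 probes had a median level of 8.97 in GMT/miR-133 iCM, 11.36 in heart and 6.14 in MEF, and 43 of them were called.

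At iCM-low probes the cells were lower than both heart and MEF. M300000003 was at 7.66, 11.24 and 7.03, against 12.57 in heart, with 13.22 in MEF. Day 7, the array from the other scan session, lay far above the other two, and the difference of −3.93 ± 2.1 did not pass (limma, adjusted p = 0.26). Without day 7 it was −5.23 (adjusted p = 0.10), and with day as a term it passed (adjusted p = 0.00029). The 3 GMT arrays ranged from 7.75 to 11.75 at this probe. M400002872 was at 6.24, 6.22 and 7.10, against 10.23 in heart, with 9.78 in MEF, a difference of −3.71 ± 0.60 (limma, adjusted p = 0.010). Here all 3 arrays lay clear of both controls. Of the 59 probes, 51 were called, and the count was 92 without day 7.

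Above heart, the pattern by MEF was less one-sided. Of the 708 probes, 407 (57.5%) stayed within 2-fold of MEF throughout and thus kept a fibroblast-like level. Another 24 (3.39%) were at least 2-fold below MEF and so partly lowered, and 118 (16.7%) were at least 2-fold above MEF where heart and MEF lie within 2-fold of each other (iCM-high). A further 10 had gone above heart where heart is at least 2-fold above MEF, and 12 were raised where heart is at least 2-fold below MEF. The other 137 did not fall on 1 side of these bounds on all 3 arrays. All 708 were detected on all 3 iCM arrays, and 693 were detected in heart as well.

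**Figure D3:**
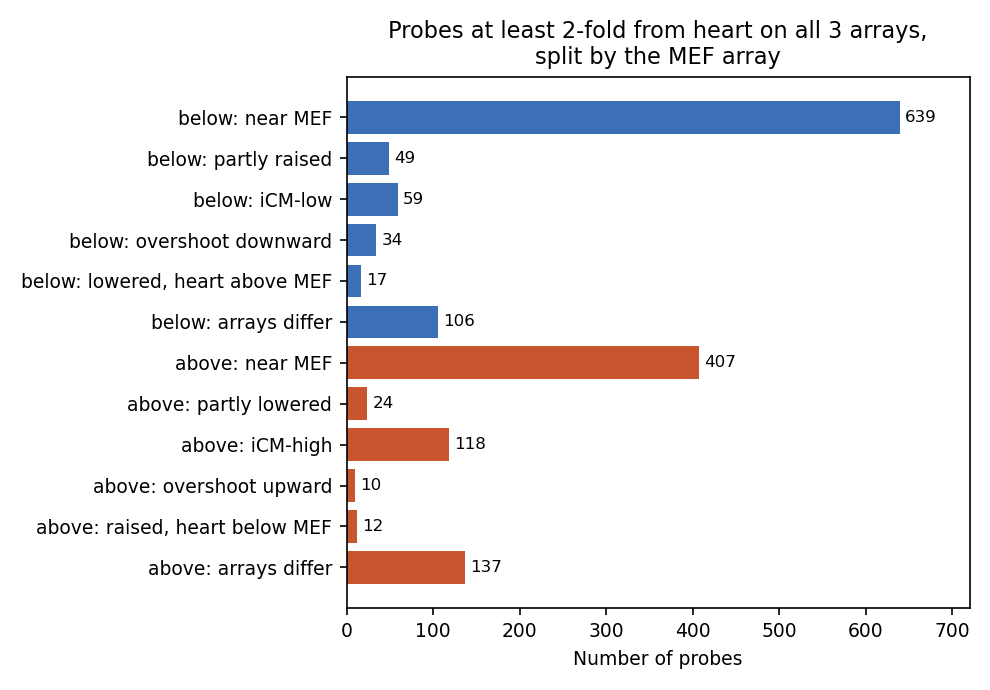
Number of probes (x axis) at least 2-fold below (blue) or above (orange) heart on all 3 GMT/miR-133 arrays, split by their position against the MEF array. Probes within 2-fold of MEF are the longest bar on each side, 639 below and 407 above.

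Probes kept near MEF made up the main group above heart. M300000141 was at 11.11, 11.18 and 11.07, against 6.72 in heart, with 11.55 in MEF, a difference from heart of 4.40 ± 0.29 (log2, SE; limma, adjusted p = 0.00052). M200008372 was at 13.54, 13.60 and 13.72, against 9.23 in heart, with 13.75 in MEF, a difference of 4.39 ± 0.24 (limma, adjusted p = 0.00028). At both, the iCM arrays formed a tight cluster close to MEF and far above heart. Over all 407 probes the median SD between days was 0.18 (log2), against 0.052 and 0.092 at these 2 probes. The median SD was 0.099 over all probes compared, many of them dimmer. It was 0.12 over all probes with a midpoint of iCM and heart between 6 and 8, and 0.19 between 8 and 10. With median levels of 9.16 in iCM and 7.52 in heart, the group did not stand out from probes of like brightness. Of the 407 probes, 392 were called and 65 were MEF-high. Median scaling raised this group to 1082 probes, while the local background reduced it to 180.

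Partly lowered probes sat between the controls on the fibroblast side. M300021033 was at 11.17, 10.93 and 10.93, against 6.95 in heart, with 12.30 in MEF, and differed from heart by 4.06 ± 0.24 (log2, SE; limma, adjusted p = 0.00037). M300006890 was at 10.44, 10.54 and 9.91, against 6.72 in heart, with 12.05 in MEF, a difference of 3.58 ± 0.25 (limma, adjusted p = 0.00065). Both stood nearer to MEF than to heart on every array. The second call was lost with the local background, where the difference was 0.53 (adjusted p = 0.93). Of the 24 probes, 23 were called.

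At iCM-high probes the cells exceeded both heart and MEF. M200001262 was at 10.97, 10.67 and 10.78, against 5.86 in heart, with 6.68 in MEF, a difference from heart of 4.94 ± 0.22 (log2, SE; limma, adjusted p = 0.00014). M400000427 was at 11.04, 10.31 and 10.08, against 6.34 in heart, with 6.26 in MEF, a difference of 4.14 ± 0.49 (limma, adjusted p = 0.0038), which the local background took to 3.02 (adjusted p = 0.30). In each case the iCM arrays lay over 3 log2 units above either control. Levels with GMT alone were of the same order, with means of 11.17 and 10.32 at these probes. Of the 118 probes, 98 were called, 112 were detected in heart, and the count was 199 without day 7.

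Overshoot, in which iCM went past heart in the direction that leads from MEF to heart, was rare. Heart exceeded MEF by at least 2-fold at 1268 of the probes compared. At 10 of them all 3 GMT/miR-133 arrays exceeded heart by at least 2-fold again, and 4 of these 10 were heart-high. Heart was at least 2-fold below MEF at 1370 probes. At 34 of them the cells were at least 2-fold below heart, and 11 of these 34 were MEF-high. Where heart lies near the floor of the scale, a downward overshoot cannot show. Limma called 9 of the 10 and 29 of the 34, beside 22.4% of all probes compared. It tests the same difference from heart that chose these probes, so the calls are no separate support. The counts were 18 upward and 47 downward without day 7, 6 and 19 with the local background, and the authors' value table gave 44 and 90.

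The upward group reached high levels in the cells. Mean levels of its 10 probes were 9.60 to 14.50 in GMT/miR-133 iCM, 6.89 to 13.16 in heart and 5.80 to 8.40 in MEF, and all 10 were detected on all 3 iCM arrays. The most extreme, M300003025, was at 12.12, 11.98 and 12.29, against 7.08 in heart, with 5.80 in MEF, a difference from heart of 5.05 ± 0.17 (log2, SE; limma, adjusted p = 4.7e-05). Its 3 GMT arrays read 12.06 to 12.41 and the second-round day 7 array 11.17. M200012637 was at 13.73, 12.89 and 14.49, against 9.50 in heart, with 8.40 in MEF, a difference of 4.20 ± 1.0 (limma, adjusted p = 0.040). All 3 arrays cleared heart by more than 3 log2 units, yet their spread put the call close to the threshold, and it was lost without day 3 (adjusted p = 0.097), without day 18 (adjusted p = 0.084) and with the local background (adjusted p = 0.16). The 4 heart-high members, listed after their values were seen, were M300020782, M200000366, M200006496 and M200000014, with differences from heart of 2.58, 2.47, 1.63 and 1.34. M200000014, the least of these, did not pass (limma, adjusted p = 0.055).

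The downward group ended near the floor at its extremes. M200005191 was at 5.73, 5.69 and 5.93, against 10.32 in heart, with 11.84 in MEF, a difference from heart of −4.54 ± 0.27 (log2, SE; limma, adjusted p = 0.00037), and it was detected on 1 of the 3 iCM arrays. M400001027 was at 5.81, 5.89 and 6.11, against 10.20 in heart, with 11.73 in MEF, a difference of −4.26 ± 0.52 (limma, adjusted p = 0.0042). Both were near the lowest level of the scale on every iCM array and well above it in heart and MEF, so the floor limits both the sizes and the spread between days. Over the 34 probes the median size was 1.95 (log2), and mean iCM levels were 5.79 to 10.94. Day 7 was the least extreme array in this group: it read higher than day 3 by a median of 0.26 (log2), with 7 of 34 probes at least 2-fold higher and 0 at least 2-fold lower, compared with 0.42% and 0.61% of all probes compared. Because the day 7 array came from another scan session, day and session cannot be told apart there.

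**Figure D4:**
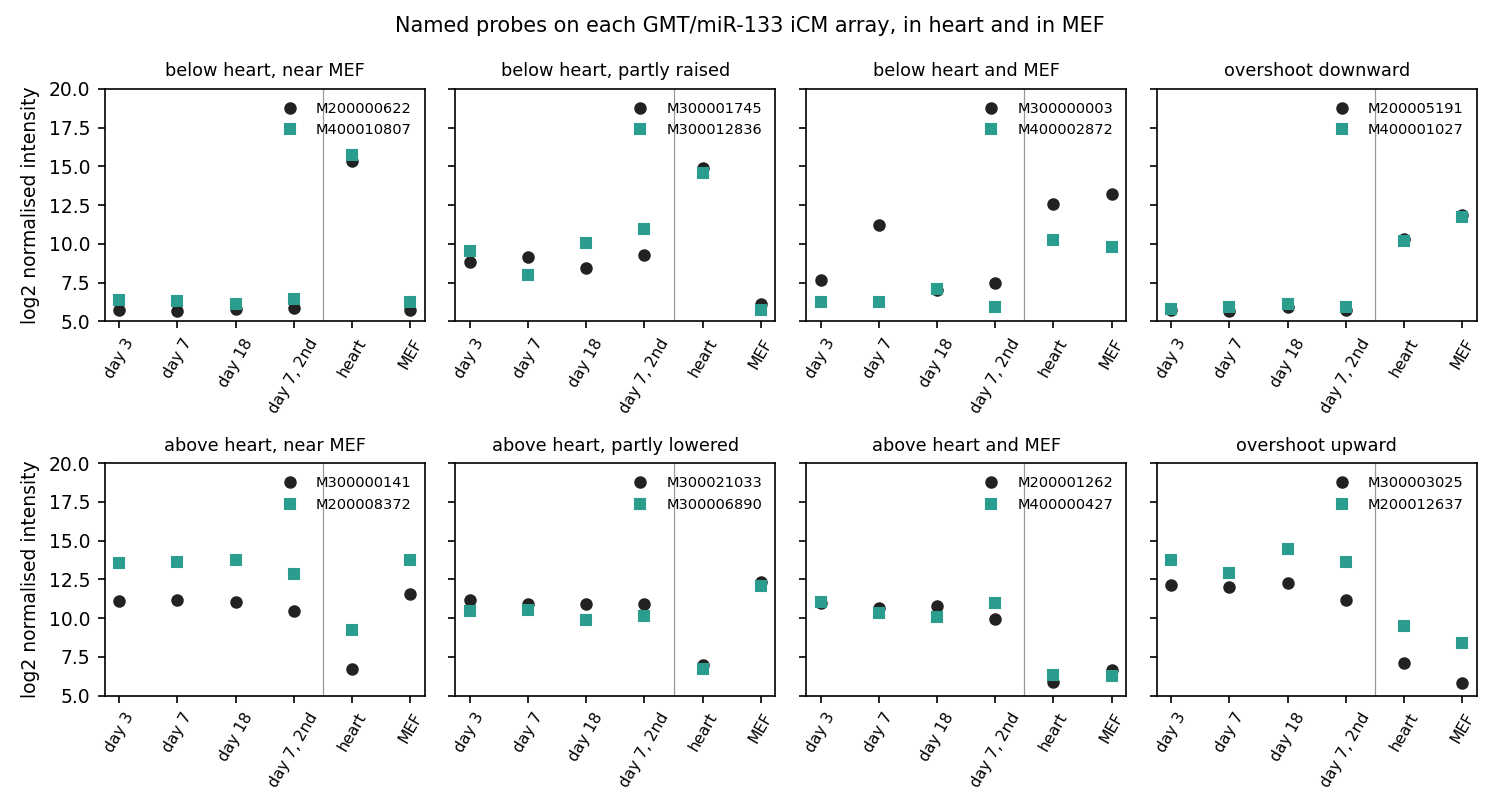
Levels of the 2 probes with the widest difference from heart in each of 8 groups (y axis, log2 normalised intensity) on the 3 first-round GMT/miR-133 arrays and the second-round day 7 array (left of the line), and on the heart and MEF arrays (right of it). Points at the different days lie close together at most probes; M300000003 at day 7 and M300012836 vary most.

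Levels were also read on arrays that took no part in choosing these probes. On the second-round day 7 array, 18 of the 904 probes below heart were at least 2-fold higher than the first-round mean (1.99%) and 8 at least 2-fold lower (0.885%). Of the 708 above, 12 were higher (1.69%) and 20 lower (2.82%). Over all 20586 probes the shares were 0.33% higher and 0.52% lower, so moves toward heart and moves away from it both made up larger shares among the chosen probes. The chosen probes were picked for their distance on the first-round arrays, and all 20586 include 5819 near the floor of the scale with little room to move. The difference in shares was not tested. All 10 upward and all 34 downward overshoot probes were at least 2-fold past the same heart array on it. With GMT alone, the mean of the 3 arrays was at least 2-fold past heart at all 10 upward and at 30 of the 34 downward probes. At the downward probes GMT/miR-133 was 0.29 lower than GMT in the median (log2), and limma called 0 of these 34 probes between the arms. The 34 were chosen for low levels on the GMT/miR-133 arrays and not on the GMT arrays. That choice alone pulls the GMT/miR-133 side down, so neither the 0.29 nor the 30 of 34 can be read as a difference between the arms.

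Day 18 was set beside day 3 within the gap, with the limit that a probe counts here only if it was still at least 2-fold from heart at day 18, so probes that had closed the gap by then are left out by the rule. At the 904 probes below heart, 8 were at least 2-fold higher at day 18 than at day 3, toward heart, and 0 were lower, with a median difference of 0.032 (log2). At the 708 probes above heart, 5 were at least 2-fold lower at day 18, toward heart, and 2 were higher, with a median of −0.083. At heart-high probes, which were chosen without the iCM arrays, the median difference from heart was −2.15 at day 18 and −2.22 at day 3. At MEF-high probes the median difference went the other way, away from heart, with 0.76 at day 18 and 0.64 at day 3. Of all 20586 probes, 0.34% were at least 2-fold higher and 0.097% lower between these arrays. With 1 array per day these differences have no replicate check, and the exchanged labels of days 3 and 7 leave the identity of the day 3 array unsettled.

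The gap was also spread over the brightness range. Taking the midpoint of iCM and heart, 428 probes were below and 314 above heart among 10005 probes between 6 and 8 (log2), and 302 and 280 among 3505 between 8 and 10. Between 10 and 12, 127 were below and 89 above among 934 probes, and at 12 or more 47 and 25 among 323. The share of probes below heart was 4.28% in the first of these bands and 14.6% in the last. The share above heart was 3.14% in the first, 9.53% between 10 and 12, and 7.74% in the last. Below 6, where the floor of the scale leaves no room for a 2-fold difference, 5819 probes could show none.

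**Figure D5:**
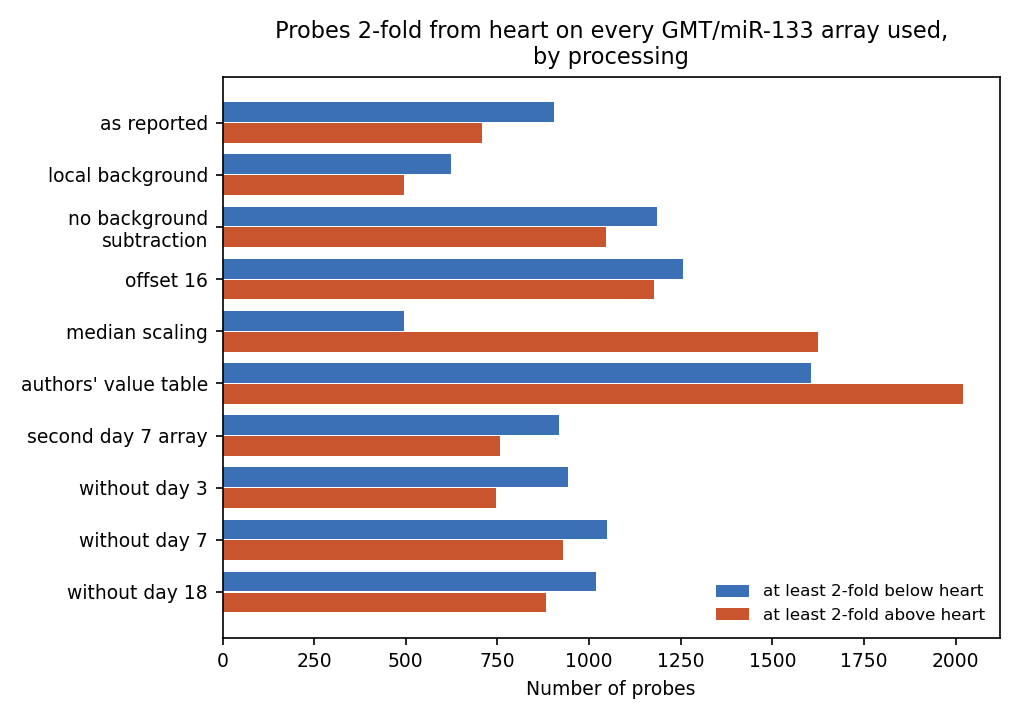
Number of probes (x axis) at least 2-fold below (blue) or above (orange) heart on every GMT/miR-133 array used, under the reported processing and 9 alternatives. Probes below heart outnumber those above it except with median scaling and in the authors' value table.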

How the data were processed

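Total RNA was amplified, labelled with Cy5 and read on Toray chips, per the labels. The deposited scanner files give a median intensity, not normalized, for each of 27456 spots. The authors' value table holds linear intensities with a median of about 25.0 per column, and its making is not described in the labels.

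Here, spot intensities were corrected with normexp fitted to 2736 blank spots (limma 3.58.1, R 4.3.3, offset 50), quantile-normalized over 10 arrays and log2-transformed, and the repeated probe was averaged. Tests used lmFit and eBayes with Benjamini-Hochberg adjustment over 20586 probes. The fit was run on simulated data of this design. It recovered 19, 35, 38 and 40 of 50 probes changed 1.5-, 2-, 3- and 4-fold, with 9 false calls. The simulated heart array was given the same spread as the others, so that assumption was not tested. Alternatives were other backgrounds, offset, scaling, source of values, fits, thresholds and left-out arrays; those for the groups by MEF, the positions and the named probes were chosen after seeing the data. Named probes are the 2 with the widest mean difference from heart in each group. Deviations of same-day arrays of the 2 iCM arms correlated across probes at 0.473 (day 3), 0.782 (day 7) and 0.763 (day 18), and the day pairs come from the labels. The members, probe sets and rules were chosen with earlier results of these data known.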

Additional observations from a re-analysis of the deposited data

How the results depend on the processing

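The median differences and positions kept their sign under every alternative run, but counts, and which side of heart held more probes, depended on background and scaling, and levels near the floor limit the sizes. The lone heart and MEF arrays could not be left out. The causes were not tested.

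With the local background, limma called 667 probes lower and 141 higher than heart, overshoot was 6 upward and 19 downward, and the groups by MEF were 31 partly raised, 36 iCM-low, 180 above heart and near MEF and 9 partly lowered. The heart-high median difference was then −2.03 and the MEF-high one 0.76 (log2), against −2.21 and 0.69 as reported, with 254 of 372 heart-high probes 2-fold below heart and a heart-high position of 25.6%. Without background subtraction, the MEF-high median was 0.98 and its position 65.0%, 214 of 518 MEF-high probes were 2-fold above heart, and 90 were iCM-low.

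With offset 16, 1176 probes were above heart, overshoot was 18 upward and 55 downward, and the groups were 82 partly raised, 94 iCM-low, 653 above and near MEF, 37 partly lowered and 189 iCM-high. The MEF-high median was 0.99, its position 65.3%, and 240 of 594 probes were above heart. With median scaling, 495 probes (23.4% of those 2-fold away) were below and 1623 above heart, limma called 1183 lower and 3493 higher, and overshoot downward was 19. The groups were 337 below and near MEF, 32 iCM-low and 1082 above and near MEF. The heart-high median was −2.13 and the MEF-high one 1.22, with 226 of 293 below and 214 of 464 above heart and positions of 24.4% and 53.8%.

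In the authors' value table (19578 probes), 1606 were below (44.3% of those 2-fold away) and 2019 above, and overshoot was 44 upward and 90 downward. Among the 19487 probes that also had a MEF value there, the groups were 119 partly raised, 175 iCM-low, 1079 above and near MEF, 68 partly lowered and 275 iCM-high. The heart-high median was −2.11 and the MEF-high one 1.40, with 656 of 899 below and 463 of 925 above heart and positions of 28.2% and 49.2%. With the second-round day 7 array, the medians were −2.14 and 0.60 and the positions 22.6% and 77.6%. A fit of heart and the 3 GMT/miR-133 arrays alone called 1407 probes higher. At 4-fold, 261 were below and 113 above, with 2 upward and 3 downward overshoots. With sets at 2-fold, the heart-high median was −1.33 and the MEF-high one 0.78.

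No paired analysis was possible because the heart array shares no day with the iCM arrays; with day as a term shared by the iCM arms (replicate block), limma called 3920 lower and 4198 higher.

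Leaving out 1 of the 3 days gave 942 to 1048 probes below and 745 to 928 above heart, 1782 to 2194 limma calls lower and 1501 to 2055 higher, and 10 to 18 upward and 34 to 48 downward overshoots. The groups below heart were 674 to 761 near MEF, 56 to 70 partly raised and 65 to 92 iCM-low, and those above were 460 to 559 near MEF, 26 to 33 partly lowered and 127 to 199 iCM-high. The heart-high median was −2.23 to −2.18 with 388 to 401 probes below heart and a position of 18.3% to 20.3%. The MEF-high median was 0.65 to 0.71 with 122 to 136 above and a position of 72.4% to 75.6%. Changes over 1.5 times came without day 7 (18 upward overshoots, 92 iCM-low, 199 iCM-high); a rule over fewer arrays can only give more probes. Of 192 alternative values for the 16 named probes, 7 lost and 1 gained the call, and 0 changed sign.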
